A study of Homo sapiens with 18 samples.

Results

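This report describes where an siRNA pool against the transcription factor E2F2 changed the response of LNCaP cells to androgen. The quantity measured was a difference of 2 responses, gene by gene: the log2 fold change of R1881 over vehicle with E2F2 siRNA, minus the same fold change with control siRNA. It rests on 12 of the 18 libraries of the series, and on the 15185 of 58037 genes in the count table that had enough counts to be tested. A positive difference means that the level with R1881 relative to vehicle was higher with E2F2 siRNA than with control siRNA. It was called for 135 genes.

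LNCaP is an established line of androgen-responsive prostate cancer cells, and R1881 is a synthetic androgen. Cells in 9% serum stripped of steroids with charcoal were transfected with a non-targeting (control), E2F1 or E2F2 siRNA SmartPool, and later received 0.1 nM R1881 or ethanol vehicle for 48 h; the interval from transfection to treatment is 48 h in the sample labels and 42 h in the series text. Each of the 4 groups compared here (control siRNA with vehicle, control siRNA with R1881, E2F2 siRNA with vehicle, E2F2 siRNA with R1881) had 3 libraries that the labels call biological replicates. All groups, controls included, were transfected, came from 1 cell line and were grown in stripped serum. RNA was read through an exon capture kit.

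Androgens are steroid hormones that act on transcription. In luminal prostate cells and in LNCaP androgen raises genes of the secretory epithelium, such as the kallikreins, and lowers others, and it also drives these cells through the division cycle. E2F2 belongs to the activating E2F factors, which, when released from the retinoblastoma protein, turn on genes for DNA replication, repair and mitosis. An interaction of the kind measured here can come from a difference with vehicle, a difference with R1881, or both. Levels in all 4 groups are therefore given for many, though not all, of the genes described. In bulk RNA, fewer cells of a kind and less RNA per cell cannot be told apart.

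The 12 libraries held 11017181 to 14819879 counts. Levels are CPM, the counts of a gene relative to library size, scaled by TMM factors, and tests are edgeR quasi-likelihood F tests with Benjamini-Hochberg adjustment over all 15185 genes, with a gene called under an adjusted p of 0.05; responses and differences are on the log2 scale, given ± SE from that fit. E2F2 itself was at 2.23, 1.45 and 3.20 CPM with control siRNA and vehicle and at 3.34, 2.36 and 4.59 CPM with control siRNA and R1881. With E2F2 siRNA it had 3, 0 and 1 counts in the vehicle libraries and 1, 1 and 5 in the R1881 libraries, so the groups did not overlap (log2 -4.14, adjusted p = 0.00015 with vehicle, and -4.05, adjusted p = 3.73e-05 with R1881); a count of 0 allows up to 3. At this depth its own difference in response, 0.09 ± 0.77, has little precision. E2F1 was also lower with E2F2 siRNA, by -1.57 with vehicle and -1.62 with R1881 (adjusted p = 3.71e-06 and 1.69e-06), and rose with R1881 by 1.00 ± 0.16 with control siRNA and 0.94 ± 0.17 with E2F2 siRNA. With only this pool against E2F2, effects of lower E2F2, of lower E2F1 and of any other target of the pool cannot be told apart. Luminal markers were high in every library (summed over 14 genes, 5950 to 10100 CPM). Of 8 basal markers 4 were tested (DST, ITGA6, ITGB4 and KRT14, with 15865, 8215, 1087 and 144 counts over the 12 libraries), while KRT15, KRT5, TP63 and KRT6A had 11, 1, 1 and 0 counts. The leukocyte marker PTPRC had 0.

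Replicate 3 stood apart in each of the 4 groups. Between replicates 1 and 2 the chi-square per degree of freedom, which is 1 for pure counting error, was 1.79 to 2.79, and in pairs with replicate 3 it was 10.3 to 93.2, highest for control siRNA with vehicle (83.3 and 93.2). The share of counts from MALAT1, a nuclear non-coding RNA, was 1.25 to 3.35% with control siRNA and 4.11 to 7.13% with E2F2 siRNA, and its part in the results was not tested. Fitted to replicates 1 and 2 alone, 1767 genes (11.6% of 15225 tested) were called in place of 135. Of the 135, 134 were among them and all 135 had the same sign, and the same held for each of the 42 called genes that the naming rule gives, which all passed. Leaving out 1 library of the 12 gave between 53 and 208 calls. The count fell to 80, 58, 60 and 78 without replicate 1 of control vehicle, control R1881, E2F2 vehicle and E2F2 R1881, to 56, 59 and 53 without replicate 2 of control R1881, E2F2 vehicle and E2F2 R1881, to 74 without E2F2 vehicle replicate 3, and rose to 208 without control vehicle replicate 3. The sign of all 135 was kept in each fit, and 44 were called in all 12. All these fits reuse libraries from which the 135 were chosen, so kept signs are no independent support.

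The 135 genes made up 0.889% of those tested. Of them 85 (0.560% of all tested) had a higher response with E2F2 siRNA and 50 (0.329%) a lower one, 53 differed by at least 2-fold, and 126 code for proteins. At an unadjusted p under 0.05 there were 1572. By comparison, R1881 changed 4105 genes (27.0%; 13.8% higher and 13.2% lower) with control siRNA and 3465 (22.8%; 11.8% and 11.0%) with E2F2 siRNA. E2F2 siRNA changed 4145 genes (27.3%; 14.2% higher and 13.1% lower) with vehicle and 4601 (30.3%; 15.9% and 14.4%) with R1881. The median size of the difference was 0.833 on the log2 scale over the called genes, which the calling favours, and 0.208 over all tested genes.

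Each called gene was put in 1 of 5 classes by its 2 responses, as a description with no test. A response was lost where the one with E2F2 siRNA was under 25% of the one with control siRNA (11 genes), and blunted where it was smaller, of the same sign and at least 25% (33 genes). It was reversed where the signs differed and the smaller was at least 25% of the larger (37 genes). It was gained where the response with control siRNA was under 25% of the one with E2F2 siRNA (26 genes), and enhanced where it was smaller, of the same sign and at least 25% (28 genes). Among lost and blunted responses, 36 of 44 were falls with R1881 in control cells (8 lost, 28 blunted). Among enhanced responses, 21 of 28 were rises. In the reversed class 20 genes rose and 17 fell with control siRNA, and both responses were themselves called for 18 of the 37. By calls alone, with no limit of 25%, the counts were 23 lost, 30 blunted, 18 reversed, 35 gained and 29 enhanced.

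**Figure D1:**
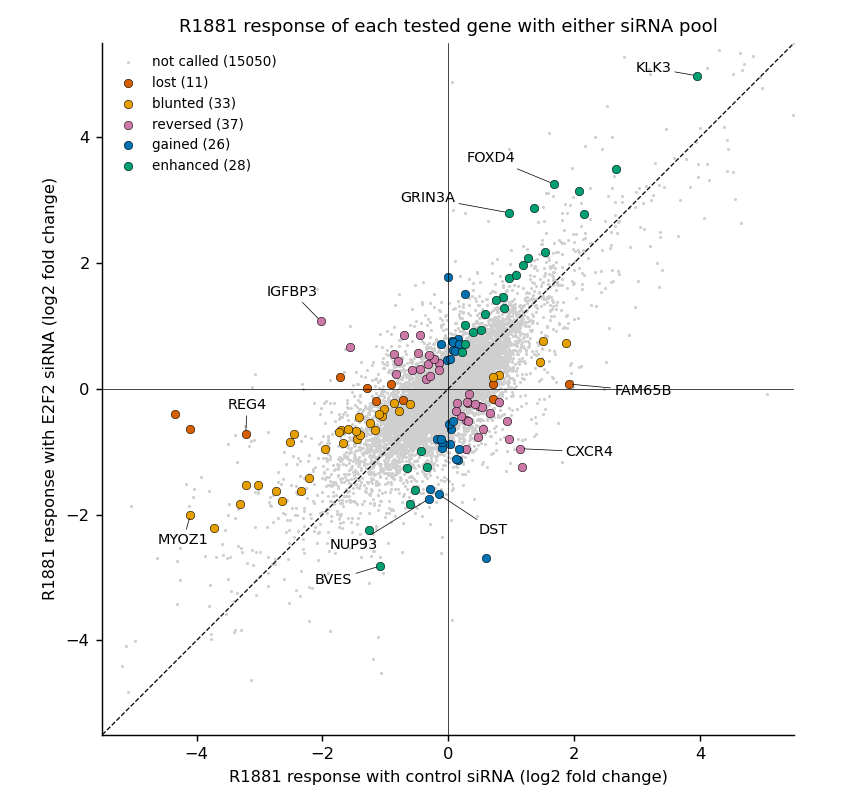
Log2 fold change of R1881 over vehicle with control siRNA (horizontal) and with E2F2 siRNA (vertical) for each tested gene, 3 libraries per group; grey points were not called for the difference and coloured points are the 135 called genes by class. Equal responses lie on the dashed line, lost and gained genes lie near the horizontal and vertical axes through 0, and reversed genes such as IGFBP3 and CXCR4 lie in the upper left and lower right; 34 genes that were not called lie outside the axes.

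Tests of E2F2 siRNA against control within each treatment describe where the pools were separated. They do not test which treatment carried a difference, and a treatment without a call can still hold one. E2F2 siRNA against control was called for 35 of the 135 genes with vehicle and not with R1881, for 42 with R1881 and not with vehicle, and for 58 with both. R1881 and vehicle libraries did not overlap for 103 of the 135 genes with control siRNA, where this held for 35.1% of all tested genes, and for 125 with E2F2 siRNA (43.2%); the calling drew on the same libraries, so nothing is read from these counts. KLK3, GRB10, TRIM25, PTPN13 and CAPN5 are of the first kind: they differed between the pools with vehicle and reached levels with R1881 that the test did not separate. CYP2U1, FOXD4, MCM6, PEG3 and HERPUD1 are of the second kind, with levels that the test separated only with R1881. IGFBP3, CXCR4, DST and NUP93 differed in both treatments.

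**Figure D2:**
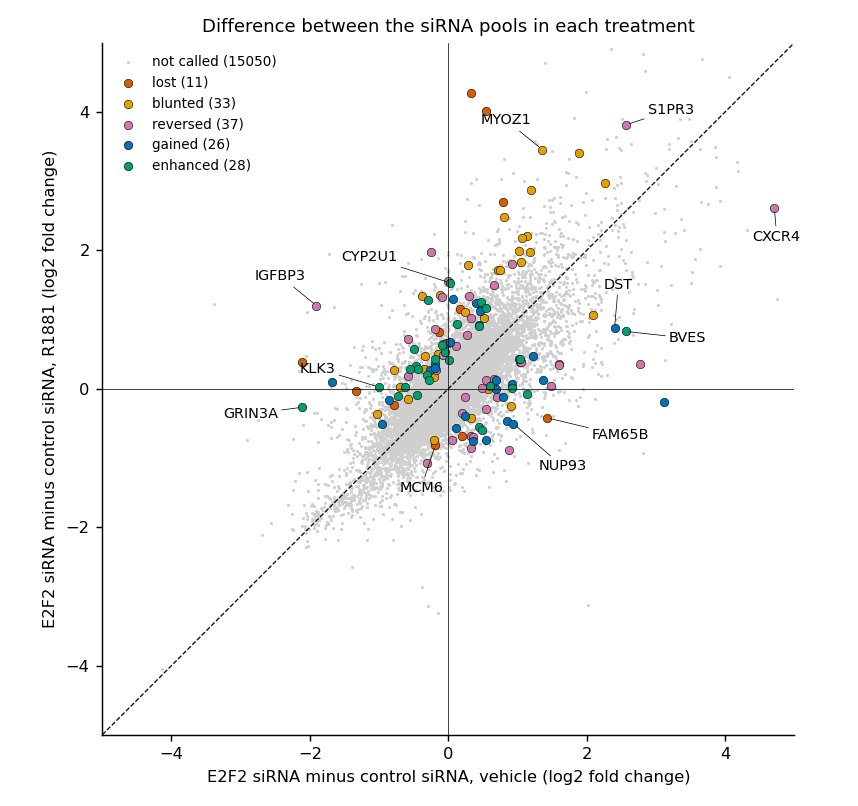
Log2 difference between E2F2 and control siRNA with vehicle (horizontal) and with R1881 (vertical) for each tested gene, 3 libraries per group. Genes on the dashed line differ equally in both treatments; called genes lie off it, some near the horizontal axis (KLK3, 0.02 with R1881), some near the vertical axis (CYP2U1, 0.02 with vehicle) and IGFBP3 with opposite signs (-1.91 with vehicle, 1.20 with R1881); 13 genes that were not called lie outside the axes.

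The response of IGFBP3 turned around, and its difference was 3.11 ± 0.24 (adjusted p = 8.6e-06). IGFBP3 is a secreted protein that binds insulin-like growth factors and controls how much of them reaches their receptor. It stood at 47.3, 46.6 and 59.8 CPM with control siRNA and vehicle and fell to 15.4, 11.7 and 10.4 CPM with R1881 (-2.03 ± 0.17). With E2F2 siRNA the level was 13.8, 15.1 and 12.1 CPM with vehicle and rose to 26.0, 33.7 and 26.7 CPM with R1881 (1.08 ± 0.17). No vehicle library overlapped an R1881 library with either pool, and the order of the groups was the opposite in the 2 pools. With E2F1 siRNA, whose libraries enter neither response, IGFBP3 fell by -1.97, as with control siRNA, and the E2F2 and E2F1 responses differed by 3.05 (adjusted p = 6.8e-06). The promoter window of IGFBP3 (250 bases up to the base before the start, RefSeq, GRCh38.p14, chr7:45921273-45921522, minus strand, shown 5′ to 3′) is printed because this gene had the largest difference among named genes, and none of its letters are in capitals because it holds neither of the motifs marked in the windows that follow.

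IGFBP3: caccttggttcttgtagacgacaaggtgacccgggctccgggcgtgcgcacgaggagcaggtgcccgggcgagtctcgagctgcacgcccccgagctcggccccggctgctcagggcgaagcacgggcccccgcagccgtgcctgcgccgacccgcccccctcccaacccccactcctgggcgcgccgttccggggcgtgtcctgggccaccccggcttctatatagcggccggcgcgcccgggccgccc

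IGF1R, the receptor for insulin-like growth factors, was in the enhanced class; it was chosen here after its values were seen. Its mean was 50.4 CPM with control siRNA and vehicle, 224.5 CPM with control siRNA and R1881, 30.6 CPM with E2F2 siRNA and vehicle and 209.6 CPM with E2F2 siRNA and R1881, and its difference was 0.62 ± 0.10 (adjusted p = 0.00518). The binding protein IGFBP2 had a difference of -0.13 ± 0.34 (adjusted p = 0.97).

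Among the other reversed genes, CXCR4, the receptor for the chemokine CXCL12, rose from 0.767, 0.623 and 1.13 CPM to 1.74, 1.71 and 2.25 CPM with R1881 in control cells. In E2F2 siRNA cells the starting level was 19.9, 23.9 and 23.4 CPM and R1881 lowered it to 11.7, 11.1 and 11.8 CPM. Every E2F2 siRNA library was above every control library, by 4.71 with vehicle and 2.61 with R1881, and the difference in response was -2.10 ± 0.29 (adjusted p = 0.00215). TMTC2, an endoplasmic reticulum membrane protein, rose from 17.0, 17.1 and 13.3 to 29.9, 30.2 and 30.5 CPM with control siRNA and fell from 44.9, 45.4 and 42.6 to 30.6, 32.6 and 30.0 CPM with E2F2 siRNA (difference -1.44 ± 0.14, adjusted p = 6.79e-05). The pools thus met at one level with R1881 (0.04, adjusted p = 0.789). S1PR3, a receptor for sphingosine 1-phosphate, fell from 13.7, 15.2 and 15.3 to 9.62, 8.00 and 7.79 CPM with control siRNA and went from 86.3, 91.1 and 85.3 to 108, 114 and 136 CPM with E2F2 siRNA (1.24 ± 0.17, adjusted p = 0.00229). As with CXCR4, all E2F2 siRNA libraries were above all control libraries. RNF150, named for its RING finger, also turned from a fall (-0.45) to a rise (0.86), with a difference of 1.30 ± 0.20 (adjusted p = 0.00449).

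VWF, BTG3, PEG3 and AEN complete the named reversed genes. VWF, von Willebrand factor, a protein of endothelial cells and platelets, had 13.6, 13.3 and 17.4 CPM with control siRNA and vehicle and 46.0, 43.1 and 45.6 CPM with E2F2 siRNA and vehicle. With R1881 it had 18.6, 18.8 and 16.4 CPM and 21.0, 24.4 and 23.9 CPM (difference -1.24 ± 0.21, adjusted p = 0.0104). Its response with control siRNA (0.28) was not called, and the vehicle and R1881 libraries overlapped there. The fall with E2F2 siRNA (-0.96) was called. VWF was the only one of 10 immune and endothelial markers that had enough counts to be tested. CDH5, PECAM1 and KDR of endothelium had 1, 7 and 4 counts over the 12 libraries. BTG3, of a family of antiproliferative proteins, had a difference of -1.24 ± 0.28 (adjusted p = 0.0455) and kept its call in 4 of the 12 fits without 1 library (highest adjusted p = 0.143). PEG3, an imprinted zinc finger gene, fell from 725, 720.0 and 615 to 412, 406 and 343 CPM with control siRNA, and stood at 630.1, 616 and 562 CPM with vehicle and 671, 705 and 741 CPM with R1881 with E2F2 siRNA (1.05 ± 0.13, adjusted p = 0.00116). Its groups did not overlap with control siRNA, while its response with E2F2 siRNA (0.23 ± 0.09) had an adjusted p of 0.0993, and with replicates 1 and 2 alone it falls in the lost class.

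The lost class held responses in both directions. FAM65B, an inhibitor of the small GTPase RhoA, rose from 5.91, 6.50 and 5.60 CPM to 22.0, 25.3 and 20.8 CPM with control siRNA (1.92 ± 0.15). With E2F2 siRNA it was at 15.8, 19.4 and 13.2 CPM with vehicle and 17.7, 17.6 and 15.6 CPM with R1881 (0.07 ± 0.15, 95% interval -0.24 to 0.38). E2F2 siRNA raised the vehicle level by 1.42 (adjusted p = 4.87e-06), the vehicle and R1881 libraries then overlapped, and the difference was -1.84 ± 0.21 (adjusted p = 0.000405). With E2F1 siRNA FAM65B rose by 1.89, and the E2F2 and E2F1 responses differed (adjusted p = 0.000229). CAPN5, a calcium-dependent cysteine protease of the calpain family, fell from 44.7, 46.6 and 64.3 to 20.5, 19.6 and 23.6 CPM with control siRNA. E2F2 siRNA libraries lay at 20.6, 19.1 and 22.2 CPM with vehicle and 20.6, 22.9 and 18.7 CPM with R1881 (difference 1.30 ± 0.22, adjusted p = 0.00917). All 6 E2F2 siRNA libraries therefore sat at the level that R1881 gave in control cells.

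Other lost responses depended more on single libraries. REG4, a secreted lectin, had 61, 82 and 116 counts with control siRNA and vehicle and 10, 10 and 6 with R1881. The E2F2 siRNA libraries had 13, 14 and 19 counts with vehicle and 3, 12 and 15 with R1881 (difference 2.50 ± 0.50, adjusted p = 0.0278). It kept its call in 5 of the 12 fits without 1 library (highest adjusted p = 0.115), and with replicates 1 and 2 alone it falls in the blunted class. SLC25A34, of the mitochondrial carrier family, had a difference of 1.90 ± 0.41 (adjusted p = 0.0404; called in 3 of 12, highest 0.147). PPARGC1B, a coactivator of genes for mitochondrial metabolism, rose with control siRNA by 0.72 ± 0.11 and had -0.16 ± 0.11 with E2F2 siRNA (difference -0.88 ± 0.16, adjusted p = 0.0166); the call was lost without E2F2 R1881 replicate 1 or 2 or E2F2 vehicle replicate 3 (highest 0.0605). ACPP, prostatic acid phosphatase, a secreted product of luminal prostate cells, fell from 213, 221 and 195 to 124, 128 and 127 CPM with control siRNA. With E2F2 siRNA it was at 123, 120.5 and 120.4 CPM with vehicle and 114, 109.9 and 97.4 CPM with R1881, no overlap in either pool (difference 0.55 ± 0.10, adjusted p = 0.0198; called in 4 of 12, highest 0.0771). Its response with E2F2 siRNA was 24.4% of that with control siRNA, just inside the limit of the class.

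MCM6 was the one called gene of the G1/S and DNA replication list, and its rise with R1881 was lost. It encodes a subunit of the MCM helicase that opens DNA at replication forks. It went from 89.2, 90.8 and 73.1 CPM to 138, 145 and 129.9 CPM with control siRNA (0.71 ± 0.09), and from 74.2, 77.4 and 70.7 CPM to 78.1, 76.1 and 80.9 CPM with E2F2 siRNA (0.08 ± 0.09). The groups were apart only in control cells, and the difference was -0.62 ± 0.12 (adjusted p = 0.0231); the call held in 6 of the 12 fits without 1 library, not without replicate 1 or 2 of control R1881, E2F2 vehicle or E2F2 R1881 (highest 0.0857). With E2F1 siRNA MCM6 had a response of 0.00 (adjusted p = 0.983), which the test did not separate from that with E2F2 siRNA. The other helicase subunits gave responses, with control and E2F2 siRNA, of 0.71 and 0.34 for MCM2, 0.57 and 0.48 for MCM3, 0.82 and 0.62 for MCM4, 0.73 and 0.67 for MCM5, and 0.74 and 0.53 for MCM7. None of these 5 differences was called (adjusted p = 0.57 to 0.98), and all 5 were below 0. With vehicle, MCM2, MCM3, MCM4, MCM5 and MCM7 had means of 134, 109, 171, 64.4 and 152 CPM with control siRNA and 51.2, 44.1, 70.2, 22.7 and 57.1 CPM with E2F2 siRNA. MCM6, at means of 84.4 and 74.1 CPM, did not differ by the test with vehicle (-0.19, adjusted p = 0.121). The MCM6 promoter window (250 bases up to the base before the start, RefSeq, GRCh38.p14, chr2:135876444-135876693, minus strand, shown 5′ to 3′) holds 4 overlapping matches to the E2F motif at 2 places, marked in capitals.

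MCM6: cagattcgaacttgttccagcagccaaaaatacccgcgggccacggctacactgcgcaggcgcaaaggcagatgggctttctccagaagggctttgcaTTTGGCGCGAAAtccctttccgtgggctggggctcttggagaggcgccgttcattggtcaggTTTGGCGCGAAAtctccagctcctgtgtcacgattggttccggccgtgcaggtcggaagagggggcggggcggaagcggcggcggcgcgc

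The E2F motif searched was TTTGGCGC, TTTCGCGC, TTTCCCGC or TTTGCCGC on either strand, in windows from 250 bases before to 50 after the start. It was in 8 of the 103 called genes with a window (7.77%) and in 5.36% of the 10950 tested genes with one. AGAACA, a single arm of the androgen response element, was in 12.6% and 8.94%, the CCAAT box in 37.9% and 37.1%, and the cell cycle homology region TTTGAA in 6.8% and 9.42%. The full element with both arms, AGAACA and TGTTCT with 3 bases between, was in none of the 10950. These are shares of short windows and were not tested.

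The blunted class was the one with the most falls. CAMK2N1, an inhibitor of calcium/calmodulin-dependent kinase II, fell from 356, 361 and 348 to 102, 89.4 and 83.9 CPM with control siRNA (-1.95 ± 0.09). The fall with E2F2 siRNA was from 577, 616 and 552 to 272, 317 and 314 CPM (-0.95 ± 0.09). E2F2 siRNA libraries were higher in both treatments with no overlap, and the difference was 1.00 ± 0.13 (adjusted p = 0.00112). GRB10, an adaptor that binds the insulin and insulin-like growth factor receptors, fell from 915, 908 and 1006 to 181, 199.9 and 178 CPM with control siRNA and from 594, 567 and 582 to 181, 180.5 and 205 CPM with E2F2 siRNA (0.72 ± 0.10, adjusted p = 0.00232). Here the pools overlapped with R1881 and were apart with vehicle. ST7 fell by -1.46 ± 0.09 and by -0.80 ± 0.09 (difference 0.66 ± 0.12, adjusted p = 0.0176), a call lost without control R1881 replicate 1 or E2F2 vehicle replicate 1 or 2 (highest 0.0643). MYOZ1 and RCAN2, which both bind the phosphatase calcineurin, fell by -4.10 ± 0.29 and -2.45 ± 0.19 with control siRNA and by -2.01 ± 0.20 and -0.73 ± 0.18 with E2F2 siRNA. Their differences were 2.09 ± 0.38 (adjusted p = 0.0154) and 1.73 ± 0.27 (adjusted p = 0.0055); that of MYOZ1, which had 5, 3 and 2 counts with control siRNA and R1881, lost its call without replicate 2 or 3 of that group (highest 0.0782). MAN1A1, a mannosidase that trims N-glycans, had a difference of 1.51 ± 0.34 (adjusted p = 0.0455) and kept its call in 1 of the 12 fits without 1 library.

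Blunted rises were 5 genes, of which PIK3AP1, AIM1 and HK2 are described. PIK3AP1, an adaptor of phosphoinositide 3-kinase, rose from 8.21, 9.82 and 8.47 to 25.7, 20.6 and 26.3 CPM with control siRNA and from 39.0, 39.7 and 34.4 to 51.3, 52.6 and 48.4 CPM with E2F2 siRNA (-1.02 ± 0.16, adjusted p = 0.00576). The smaller rise began from a higher level, since every E2F2 siRNA library exceeded every control library. With E2F1 siRNA PIK3AP1 rose by 1.49, and the E2F2 and E2F1 responses differed by -1.06 (adjusted p = 0.00292). HK2, the hexokinase that starts glycolysis in many tumour cells, rose from 33.0, 35.6 and 32.7 to 98.9, 98.7 and 91.2 CPM with control siRNA and from 41.0, 38.0 and 48.1 to 78.5, 67.1 and 69.7 CPM with E2F2 siRNA. The 4 groups did not overlap, and the difference was -0.75 ± 0.14 (adjusted p = 0.0198; called in 7 of 12, highest 0.0746). AIM1 had a difference of -1.15 ± 0.23 (adjusted p = 0.0231; called in 4 of 12, highest 0.0772).

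Gained responses were led by falls. NUP93, a scaffold protein of the nuclear pore, fell slightly in control cells, from 235, 229.8 and 267 to 203, 194 and 194 CPM (-0.31 ± 0.09). With E2F2 siRNA it fell from 439, 477 and 486 to 128, 133 and 157 CPM (-1.75 ± 0.09). It was above control with vehicle and below control with R1881, with no overlap in either treatment, and the difference was -1.44 ± 0.12 (adjusted p = 1.83e-05). With E2F1 siRNA NUP93 fell by -0.43, and the E2F2 and E2F1 responses differed by -1.32 (adjusted p = 2.38e-05). DST, dystonin, a linker of the cytoskeleton, went from 57.8, 53.5 and 41.2 to 43.0, 48.6 and 45.9 CPM with control siRNA and from 272, 273 and 261 to 76.9, 74.8 and 99.9 CPM with E2F2 siRNA (-1.53 ± 0.18, adjusted p = 0.000465). The control groups overlapped and the E2F2 groups were far apart. DST is also on the list of basal epithelial markers, whose 8 genes summed to 84.1 to 115 CPM with control siRNA and vehicle and 322 to 353 CPM with E2F2 siRNA and vehicle; DST itself makes up most of that difference. NAV3, a protein of microtubule ends, fell by -1.59 ± 0.17 with E2F2 siRNA and had -0.28 ± 0.16 with control siRNA (-1.31 ± 0.23, adjusted p = 0.0131; lost without control R1881 or E2F2 R1881 replicate 2, highest 0.0561).

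Gained rises were smaller or rested on fewer counts. WDR7 was at 106, 104 and 87.8 CPM with vehicle and 94.6, 94.5 and 84.4 CPM with R1881 with control siRNA, and at 129, 136 and 127 and then 207, 220.3 and 216 CPM with E2F2 siRNA. Its difference was 0.84 ± 0.12 (adjusted p = 0.00272), and the response with E2F2 siRNA also differed from that with E2F1 siRNA (0.70, adjusted p = 0.00534). TTR, transthyretin, a carrier of thyroid hormone and retinol-binding protein, had 26, 24 and 29 counts and 31, 20 and 24 counts with control siRNA, and 7, 5 and 7 counts and 27, 27 and 17 counts with E2F2 siRNA. E2F2 siRNA thus lowered it with vehicle, and with R1881 the pools overlapped (difference 1.78 ± 0.36, adjusted p = 0.0276; called in 4 of 12, highest 0.097). DEFB132, a defensin, had 7.77, 8.4 and 6.55 CPM with vehicle and 19.6, 23.3 and 21.2 CPM with R1881 with E2F2 siRNA (1.23 ± 0.24, adjusted p = 0.0214; called in 6 of 12, highest 0.0744).

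KLK3, of the androgen-induced list, was in the enhanced class. It encodes prostate-specific antigen, a secreted protease whose gene is a classic marker of androgen action. It rose from 115, 113 and 103 to 1717, 1650.3 and 1717 CPM with control siRNA (3.95 ± 0.13) and from 53.9, 44.2 and 66.3 to 1802, 1776 and 1595 CPM with E2F2 siRNA (4.97 ± 0.14). The larger fold came from the vehicle level, which was 2.01-fold lower than with control siRNA (adjusted p = 1.49e-05), whereas with R1881 the pools overlapped (0.02, adjusted p = 0.903). The difference was 1.03 ± 0.17 (adjusted p = 0.00813), and with E2F1 siRNA the response was 3.42, lower than with E2F2 siRNA by 1.55 (adjusted p = 9.35e-05). The related KLK2 and KLK4, which share sequence with KLK3 so that reads may be split between them, had differences of -0.01 ± 0.21 and 0.54 ± 0.33 (adjusted p = 0.997 and 0.662). Mean KLK2 was 9.57 CPM and 433 CPM with control siRNA and 7.21 CPM and 325 CPM with E2F2 siRNA. The KLK3 promoter window (250 bases up to the base before the start, RefSeq, GRCh38.p14, chr19:50854665-50854914, plus strand, shown 5′ to 3′) holds 1 such arm (AGAACA), in capitals.

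KLK3: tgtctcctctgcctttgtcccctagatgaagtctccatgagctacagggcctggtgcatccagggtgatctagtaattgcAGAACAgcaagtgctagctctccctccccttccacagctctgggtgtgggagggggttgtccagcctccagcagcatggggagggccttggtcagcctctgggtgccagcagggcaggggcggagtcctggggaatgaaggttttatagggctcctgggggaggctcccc

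GREB1, an androgen- and estrogen-induced cofactor chosen here after its values were seen, had a difference of 1.07 ± 0.16 (adjusted p = 0.00352). GRIN3A, a subunit of NMDA-type glutamate receptors, rose from 18.0, 19.5 and 17.7 to 38.6, 35.0 and 33.8 CPM with control siRNA (0.96 ± 0.10). With E2F2 siRNA it rose from 3.98, 4.53 and 4.31 to 28.1, 29.5 and 31.7 CPM (2.80 ± 0.11). The vehicle groups were far apart (-2.11) and the R1881 groups close (-0.27), and the difference was 1.84 ± 0.14 (adjusted p = 8.6e-06). CYP2U1, a cytochrome P450 that hydroxylates fatty acids, showed the other form: 28.4, 27.8 and 22.1 CPM against 26.2, 29.2 and 24.0 CPM with vehicle, and 66.4, 64.7 and 69.2 CPM against 207, 217 and 155 CPM with R1881 (1.51 ± 0.20, adjusted p = 0.00159). FOXD4, a forkhead factor with near-identical copies among which reads may be split, rose by 1.67 ± 0.16 and by 3.26 ± 0.16 (1.58 ± 0.22, adjusted p = 0.00232). With R1881 the pools were apart for both genes; with vehicle CYP2U1 overlapped and FOXD4 was not separated by the test (-0.30, adjusted p = 0.214).

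Falls were enhanced in 7 genes. BVES, a membrane protein that binds cyclic AMP, fell from 10.1, 8.86 and 7.87 to 5.54, 3.14 and 3.89 CPM with control siRNA and from 57.1, 57.1 and 44.4 to 7.02, 8.20 and 7.24 CPM with E2F2 siRNA (-1.73 ± 0.29, adjusted p = 0.00917). TRIM25, a ubiquitin ligase that activates the RNA sensor RIG-I, fell from 224, 226 and 253 to 177, 184 and 193 CPM with control siRNA and from 433, 448 and 446 to 185, 185 and 189 CPM with E2F2 siRNA (-0.90 ± 0.10, adjusted p = 0.000259). In both the excess with vehicle was large, and for TRIM25 the pools overlapped with R1881. PTPN13, a protein tyrosine phosphatase, fell from 139, 137 and 94.2 to 76.2, 85.4 and 79.3 CPM and from 279, 277 and 257 to 74.0, 76.9 and 78.1 CPM (-1.21 ± 0.17, adjusted p = 0.00252). LRIG3, a membrane protein with leucine-rich repeats, differed by -1.09 ± 0.15 (adjusted p = 0.00229), being above control with vehicle (0.49) and below it with R1881 (-0.60).

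**Figure D3:**
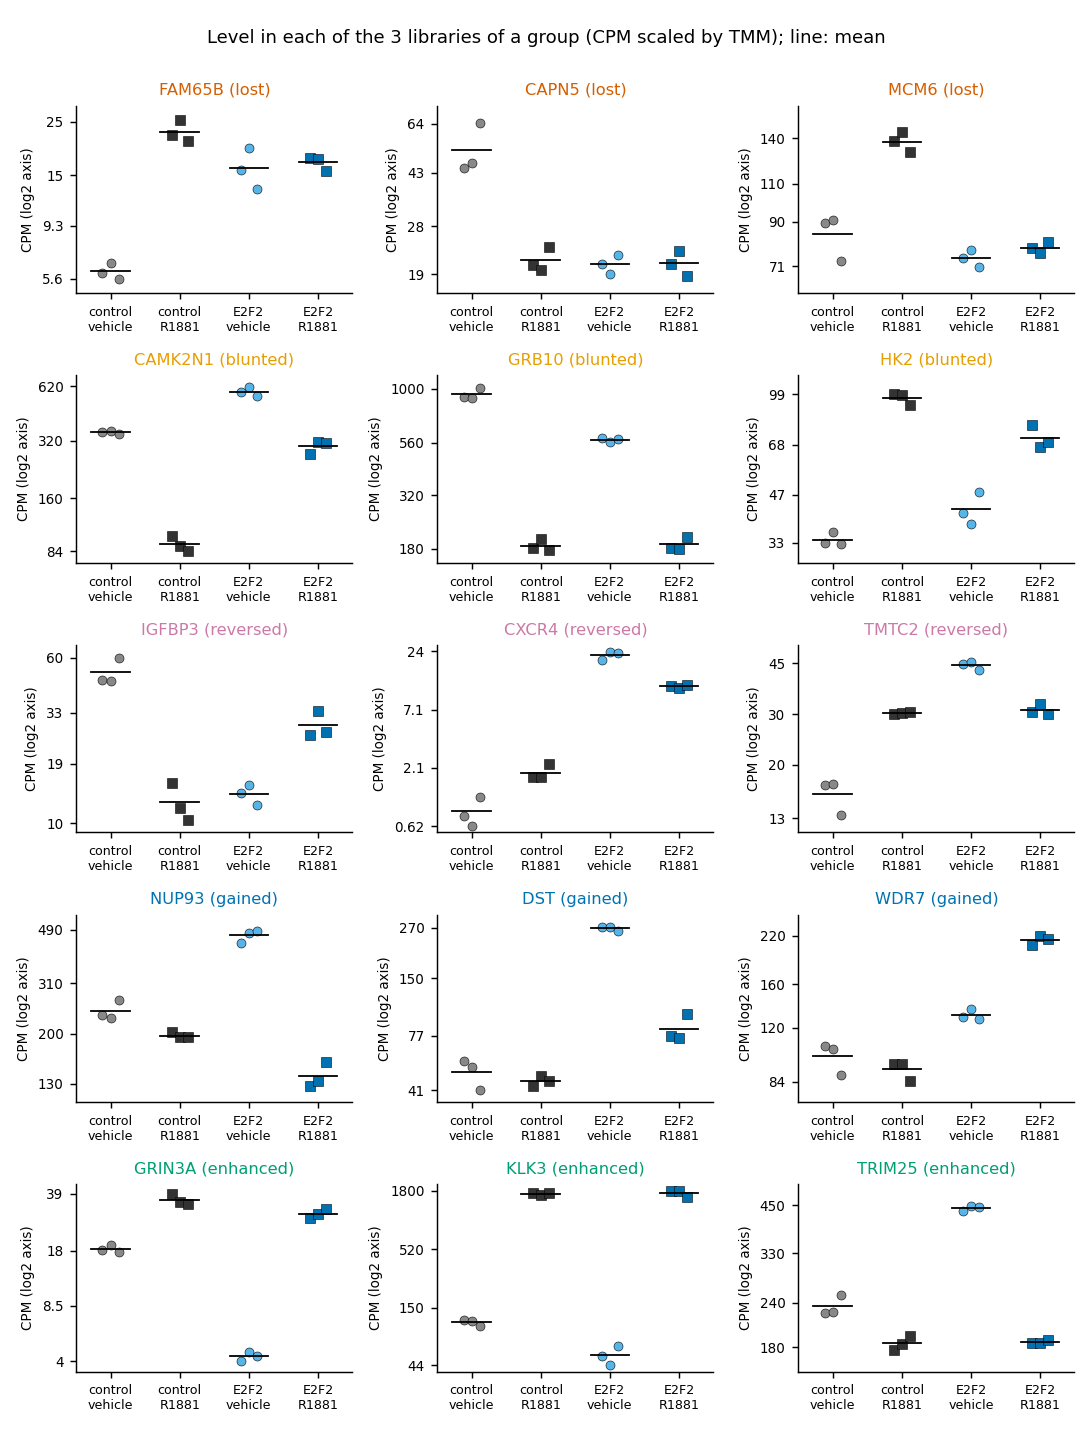
Level of 15 called genes in each library (points, CPM scaled by TMM, log2 axis that does not start at 0; line, mean of 3 libraries) with control siRNA (grey and black) or E2F2 siRNA (light and dark blue), vehicle (circles) or R1881 (squares). CAPN5 with E2F2 siRNA lies at the level of control siRNA with R1881 in all 6 libraries, IGFBP3 falls in one pool and rises in the other, and KLK3 and TRIM25 differ between the pools with vehicle and overlap with R1881.

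Across gene lists, few members were called, and values are set beside those of all tested genes (median difference -0.00578, 49.3% above 0, 0.889% called). Of all 15185 tested genes 1572 had an unadjusted p under 0.05. The fit to replicates 1 and 2 alone called 11.6% of all genes, DESeq2 2.20% and limma-voom 0.869%, and the members' counts in those fits are to be read against these shares. Most androgen-induced genes kept their rise: of 36 tested members 34 rose with control siRNA and 35 with E2F2 siRNA, the median difference was 0.167, and 2, KLK3 among them, were called (20 with replicates 1 and 2 alone). Among 21 androgen-repressed genes 19 fell with control siRNA and 18 with E2F2 siRNA. Of these 21, 4 were called (CAMK2N1, GRB10, ST7 and PEG3; 10 with replicates 1 and 2 alone), the first 3 with less fall and PEG3 with a response of 0.23 with E2F2 siRNA in place of a fall. The median difference was 0.328, and 17 were above 0.

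Cell cycle genes were much lower with E2F2 siRNA in both treatments, and little of this appeared as a called difference in response. Of 50 genes of G1/S and DNA replication, E2F2 siRNA lowered 41 with vehicle and 49 with R1881. R1881 raised 43 of them with control siRNA (median 0.805), 30 with E2F2 siRNA (median 0.499) and 4 with E2F1 siRNA (median 0.105). The median difference was -0.21, 43 of 50 were below 0, and 1, MCM6, was called; with replicates 1 and 2 alone 11 were. Of 64 genes of G2/M and mitosis, R1881 raised 54 with control, 44 with E2F2 and 13 with E2F1 siRNA, with medians of 0.97, 0.926 and 0.339. Their median difference was -0.0422 and none was called by edgeR, DESeq2 or limma-voom, 3 having an unadjusted p under 0.05, while with replicates 1 and 2 alone 2 were called. Among 40 DNA repair genes R1881 raised 30 with control, 16 with E2F2 and 2 with E2F1 siRNA. Of their differences 35 were below 0 (median -0.268), and none was called by edgeR, DESeq2 or limma-voom. At an unadjusted p under 0.05 there were 7, while with replicates 1 and 2 alone 8 were called. CHEK2, a checkpoint kinase, and RAD51C, a recombination protein, had differences of -0.62 (adjusted p = 0.102; 0.0171 with replicates 1 and 2 alone) and -0.60 (adjusted p = 0.201; 0.00483). Of 34 genes for MYC and ribosome biogenesis, R1881 raised 28 with control, 16 with E2F2 and 4 with E2F1 siRNA. Of their differences 32 were below 0 (median -0.177), and none was called by edgeR, with 5 at an unadjusted p under 0.05. DESeq2 called 1, limma-voom 0 and the fit to replicates 1 and 2 alone 7. In each of these lists fewer members rose with E2F1 siRNA than with E2F2 siRNA.

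Targets of p53, the tumour suppressor that answers DNA damage, leaned to lower responses with E2F2 siRNA. Of 31 tested members, E2F2 siRNA raised 16 with vehicle and 10 with R1881. R1881 lowered 10 with control, 19 with E2F2 and 13 with E2F1 siRNA, with median responses of -0.115, -0.605 and -0.395. A lower median response than with control siRNA was thus not particular to E2F2 siRNA. The median difference was -0.416, 25 were below 0, and 2 were called (17 with replicates 1 and 2 alone). AEN, a nuclease of apoptotic cells, rose from 41.2, 40.3 and 47.4 to 64.6, 60.7 and 62.2 CPM with control siRNA and fell from 59.8, 64.1 and 63.3 to 51.4, 50.02 and 51.2 CPM with E2F2 siRNA (-0.84 ± 0.13, adjusted p = 0.00579). DDB2, which recognises ultraviolet damage in DNA, was at 21.4, 19.7 and 27.1 CPM and 22.6, 21.6 and 25.2 CPM with control siRNA and fell from 36.5, 39.1 and 42.1 to 19.4, 19.5 and 24.8 CPM with E2F2 siRNA (-0.91 ± 0.20, adjusted p = 0.0481; called in 2 of 12, highest 0.151). CDKN1A, the cyclin-dependent kinase inhibitor p21, was at 182, 185 and 237 CPM with control siRNA and vehicle and 1060.2, 1075 and 1256 CPM with E2F2 siRNA and vehicle. With R1881 it was at 118, 104 and 119 CPM and 399, 480.1 and 498 CPM, so R1881 lowered it with both pools, and its difference of -0.47 ± 0.16 was not called (adjusted p = 0.241; 0.000158 with replicates 1 and 2 alone).

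Genes of folding and stress in the endoplasmic reticulum leaned the other way. Of 34 members, R1881 raised 19 with control, 24 with E2F2 and 26 with E2F1 siRNA, with median responses of 0.471, 0.734 and 0.748. The larger median response was thus not particular to E2F2 siRNA. With E2F2 siRNA 33 differences were above 0 (median 0.179), and 22 were called with replicates 1 and 2 alone. In the main fit 1 member was called. This was HERPUD1, which helps destroy misfolded proteins. It went from 94.5, 93.8 and 119 to 118, 129 and 124 CPM with control siRNA and from 90.5, 97.7 and 98.8 to 190.4, 204 and 183 CPM with E2F2 siRNA (0.74 ± 0.13, adjusted p = 0.0137). The call was lost without control R1881 replicate 1, E2F2 vehicle replicate 1 or E2F2 R1881 replicate 2 (highest 0.0544). Interferon response genes were raised by E2F2 siRNA in 28 of 51 with each treatment, with a median difference of 0.138 and TRIM25 the 1 called (7 with replicates 1 and 2 alone). Among 37 genes of sterol and fatty acid synthesis R1881 raised 27 and 26 with the 2 pools, the median difference was -0.000414 and none was called by edgeR, DESeq2 or limma-voom (3 with an unadjusted p under 0.05), while with replicates 1 and 2 alone 9 were called.

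**Figure D4:**
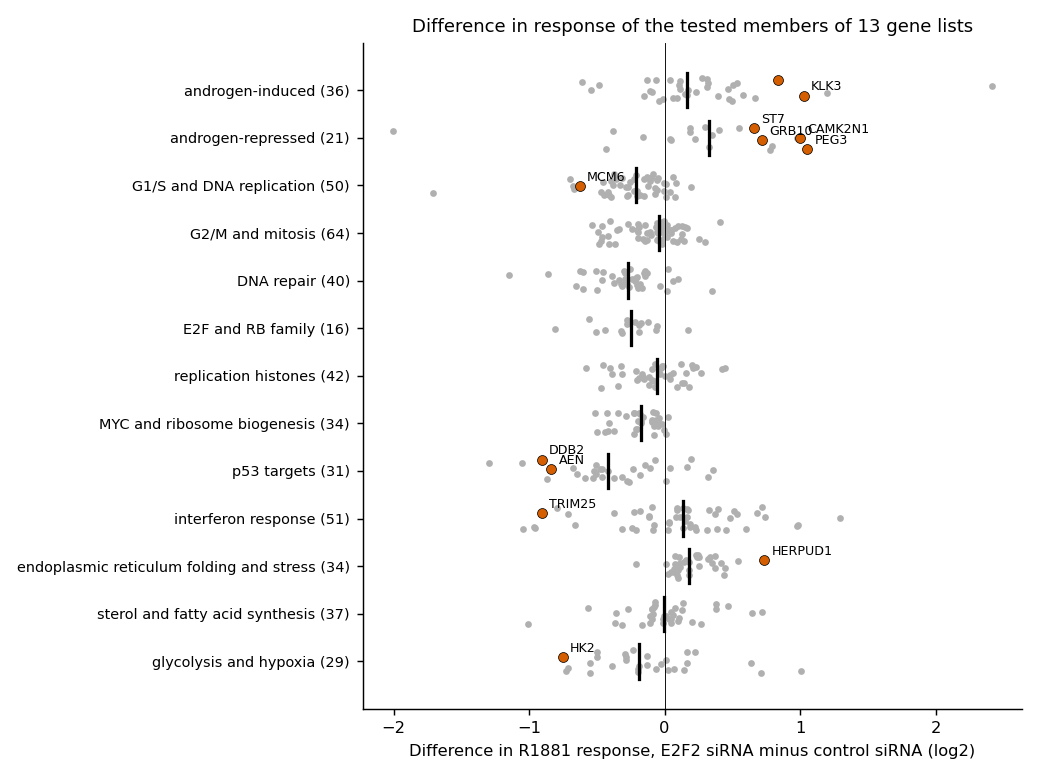
Difference in R1881 response, E2F2 siRNA minus control siRNA, on the log2 scale, for each tested member (points; number in brackets) of 13 gene lists; orange points, most of them named, were called at an adjusted p under 0.05 and black bars are medians. The medians of the p53 targets (-0.416) and of the androgen-repressed genes (0.328) lie farthest from 0, and 12 points are called, among them MCM6 and HERPUD1.

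With E2F1 siRNA, the most similar treatment of the series, the R1881 response of the 135 genes could be read in libraries that entered neither of the responses compared. It lay nearer to the control response than to the E2F2 response in 96 of the 135, against 7354 of the 15185 tested genes. It had the sign of the control response in 110 of the 135, which was not counted over all tested genes. Among these were 33 blunted and 27 enhanced genes, where the control and E2F2 responses share a sign, so that likeness to control cannot be read from it. Among reversed genes it had that sign in 24 of 37. By class it lay nearer to control for 4 of 11 lost, 24 of 33 blunted, 24 of 37 reversed, 21 of 26 gained and 23 of 28 enhanced genes. The test of the E2F2 response against the E2F1 response called 58 of the 135 and 1.65% of all genes (0.784% higher, 0.863% lower). By class it called 2 of 11 lost, 15 of 33 blunted, 11 of 37 reversed, 13 of 26 gained and 17 of 28 enhanced genes. The E2F2 siRNA libraries also entered the calling of the 135, so these counts are no independent support. Named genes that it called include CAMK2N1 (1.37, adjusted p = 2.38e-05), ST7 (1.24, 4.64e-05), BVES (-2.89, 7.6e-05) and TMTC2 (-1.87, 4.74e-06). For RCAN2 and MCM6 the response with E2F1 siRNA was near that with E2F2 siRNA: -0.91 and -0.73 for RCAN2, 0.00 and 0.08 for MCM6, where the control responses were -2.45 and 0.71. The differences between the E2F pools were 0.18 (95% interval -0.34 to 0.71) and 0.08 (-0.18 to 0.34), with an adjusted p of 1 for both.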

How the data were processed

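RNA of 18 LNCaP cultures was sequenced, and the authors deposited whole-number counts per gene, made with featureCounts (Subread 1.6.4) on the GRCh38 genome; CASAVA 1.8.2, TopHat2 2.0.13 and Picard 1.97 are also named, per the submitters' processing notes. Strand setting, handling of reads with several places and annotation release are not given in the sources used here, so values of genes with near-identical copies, overlapping genes and antisense genes are uncertain. The edgeR function filterByExpr (minimum count 10, minimum total 15, by group) left 15185 genes, and libraries were scaled by TMM factors. In edgeR 4.0.16 (R 4.3.3) all 18 libraries entered a quasi-likelihood fit of 6 group means; the 6 E2F1 siRNA libraries entered the interaction only through the shared estimate of the spread, a common biological coefficient of variation of 0.167. P-values were adjusted over all tested genes. SEs of log2 values were derived from the F statistic. The classes were made from the same fit as the interaction and carry no test. The labels call the 3 libraries of a group biological replicates and do not say what they share.

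Genes named were E2F2, E2F1 and KLK3; from each class and direction the 3 called genes with the largest difference among those with a gene name and a mean log2 CPM not under 1; and from each of 26 gene lists up to 4 called members or, where none was called, up to 2 with the smallest p. Small families are set side by side. Some genes that the rule gives are not reported here. The members, gene lists and rules were chosen with earlier results of these data known, so no list count is independent support. Annotation came from GENCODE 29, which held 15122 of the 15185 tested genes, and promoter windows from the RefSeq table (GRCh38.p14), which gave one for 10950. Alternatives were RLE size factors, all genes with a count, a CPM filter (1 in 3 libraries), limma-voom (limma 3.58.1), DESeq2 1.42.0, a fit to the 12 libraries only, the replicate number as a block, replicates 1 and 2 only, an adjusted p of 0.01, other class rules, and leaving out each of the 12 libraries. The script was tested on simulated counts.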

Additional observations from a re-analysis of the deposited data

Results flagged for a closer look

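The R1881 response with E2F2 siRNA differed from that with E2F1 siRNA for 250 of 15185 genes (1.65%; 119 higher and 131 lower with E2F2 siRNA; edgeR quasi-likelihood test of the difference of the responses, adjusted p under 0.05), which is what drew attention to it: the same androgen contrast in cells with 2 knockdowns. The 2 responses share no library. Among genes named above, GRIN3A differed by 2.23 (adjusted p = 9.83e-07) and IGFBP3 by 3.05 (adjusted p = 6.8e-06).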

How the results depend on the processing

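All 135 called genes had the same sign under each alternative tried. Of 1688 values of named genes under alternatives, 1481 stayed on their side of the threshold, 157 no longer passed and 50 newly passed. No value changed sign where the gene passed in the main fit or in the alternative. Sign changes of genes that passed in neither are counted among the 1481. E2F2, for example, had a difference of 0.09 in the main fit and -1.31 with replicates 1 and 2 only. The alternatives reuse the libraries from which the 135 were chosen, so a kept sign is no independent support. RLE scaling, a CPM filter and limma-voom gave 132, 138 and 132 calls. For the counts of calls, lost, blunted, reversed, gained and enhanced genes, in that order, where main values were 135, 11, 33, 37, 26 and 28: without a filter on low counts, which tests more genes, 60, 4, 17, 16, 11 and 12; by DESeq2 314, 47, 71, 70, 53 and 73; with only the 12 libraries, and so fewer to estimate the spread, 40, 3, 8, 10, 9 and 10; with replicates 1 and 2 only 1767, 271, 301, 380, 332 and 467; at an adjusted p under 0.01, 37, 2, 8, 9, 7 and 11. With a class limit of 50% there were 37 lost, 12 blunted, 44 gained and 16 enhanced genes, and by calls only 23 lost and 18 reversed. Fits that left out 1 library gave 53 to 208 calls, 3 to 19 lost, 11 to 51 blunted, 14 to 46 reversed, 10 to 39 gained and 12 to 53 enhanced genes. Of the 42 called genes that the naming rule gives, 25 passed in all 12 of these fits. With replicates 1 and 2 only 4 of the 42 changed class: REG4 to blunted, PPARGC1B to reversed, PEG3 to lost and DEFB132 to enhanced. The cause of the other shifts was not tested.

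A replicate block (the replicate number as a term) gave 658, 115, 147, 150, 112 and 134, and with the block in the 12 libraries only 216 calls, 34 lost and 45 enhanced genes. Libraries of the same number deviated together in 17 of 18 pairs (r of 0.0819 to 0.658, limit 0.1). For number 3 r was 0.332 to 0.658, for number 1 it was 0.153 to 0.34 and for number 2 it was 0.0819 to 0.444. The 36 pairs of different number had r of -0.568 to 0.411. Of 12 libraries 9 correlated best with one of their own number, a hint from the data and not from the design.

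Across 15122 genes the difference in response had r = 0.198 with GC content, -0.204 without control siRNA vehicle replicate 3, and 0.015 with replicates 1 and 2 only (15022 genes); genes are not independent replicates. Depth limits genes at a few counts per library, such as E2F2.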

Other observations

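In the other gene groups most members were not called for the difference of responses. Of 42 replication histones E2F2 siRNA lowered 38 with vehicle and 36 with R1881. R1881 raised 18 with control, 10 with E2F2 and 0 with E2F1 siRNA, and the median difference was -0.0533. Of 29 glycolysis and hypoxia genes R1881 raised 16 and 12 with the 2 pools (median difference -0.187, HK2 called). The E2F and RB family (16 genes) and the G1 cyclins and inhibitors (15 genes) had medians of -0.248 and -0.237 with 15 and 13 members below 0 and none called. Medians were -0.0221 for 32 ATF4 targets, 0.19 for 19 genes of androgen and steroid metabolism, -0.171 for 25 growth factor feedback genes, -0.0514 for 27 apoptosis genes, 0.0358 for 21 steroid receptor cofactors and -0.064 for 13 mitochondrially encoded genes, with none called by edgeR (1, 3, 3, 5, 3 and 0 at an unadjusted p under 0.05). Over all 15185 tested genes 1572 had an unadjusted p under 0.05. With replicates 1 and 2 alone, a fit that called 11.6% of all genes, the calls were 5 of the histones, 11 of the glycolysis and hypoxia genes, 0 of the E2F and RB family, 2 of the G1 cyclins and inhibitors, and 5, 3, 4, 3, 2 and 0 of the last 6 groups. Of 14 luminal markers 3 were called, KLK3 and ACPP among them (8 with replicates 1 and 2 alone), and of 3 stromal and 3 neuroendocrine markers tested none was.

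AOC1, which degrades histamine and putrescine and belongs to the 16 polyamine genes tested (median 0.0622), lay just outside the threshold. It fell from 19.6, 20.0 and 37.2 to 0.668, 1.21 and 1.99 CPM with control siRNA and from 159, 165 and 215 to 29.2, 34.0 and 44.4 CPM with E2F2 siRNA. E2F2 siRNA libraries with R1881 overlapped control libraries with vehicle, and the difference was 2.02 ± 0.50 (adjusted p = 0.0807; 8.64e-07 with replicates 1 and 2 only). TNFSF10, the death ligand TRAIL, chosen after its values were seen, had responses of 1.05 with control siRNA and -0.96 with E2F2 siRNA, a difference of -2.01 that was not called (adjusted p = 0.103).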
